A study of Sus scrofa with 36 samples.

Results

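Tissue from the infarct (IZ) was compared with tissue from the border zone (BZ) of the same hearts 1 day after coronary ligation in newborn pigs. The comparison holds 6 of the 36 libraries of the series. They were chosen by their labels as the 3 IZ and the 3 BZ libraries of the Young Early condition, and an IZ and a BZ library were paired where they carried the same pig number. Yorkshire-landrace pigs had branches of the left anterior descending and left circumflex coronary arteries tied off permanently at 2 days of age, and hearts were taken 1 day later, at 3 days of age. Every pig received ketoprofen, for pain, and the antibiotic enrofloxacin. The 3 pigs are called pig 1, pig 2 and pig 3, after the replicate numbers of their libraries. The 3 sham-operated pigs of the same age, sampled once each in the anterior left ventricular wall, are given as a level beside the zones and enter no test. The other conditions set beside Young Early are Old Early, with ligation at 14 days and harvest 1 day later at 15 days of age, and Young Late, with ligation at 2 days and harvest 1 week later at 9 days of age, each again with IZ and BZ from 3 pigs. Old Late, with ligation at 14 days and harvest 1 week later, also has IZ and BZ from 3 pigs. It enters the fit, and so the estimate of the spread, but is not compared.

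An infarct is the territory whose coronary supply has been cut off, in which muscle cells die over hours to days. The border zone is the surviving muscle next to it, which is still perfused but is exposed to stretch and to signals from the injured tissue. Cardiac muscle runs on fatty acids and oxidative phosphorylation, so its transcripts for sarcomere proteins and mitochondrial enzymes are among the most abundant in the ventricle, while injured tissue is known for stress-response transcription factors, endoplasmic reticulum chaperones, cytokine signalling and incoming white blood cells. The ventricle of newborn pigs has been studied because it can still replace lost muscle for a few days after birth. Each biopsy is a mixture of cells, so fewer cells of a type and less RNA per cell cannot be told apart in any value below.

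Polyadenylated RNA was sequenced, and the values are counts of reads per gene. Levels are given as CPM, counts scaled to the same library total, after scaling by TMM factors, with no correction for gene length, so levels are compared between libraries and not between genes. Changes are log2 fold changes of IZ over BZ from an edgeR quasi-likelihood fit with the animal as a block and n = 3 pigs. The value after ± is a standard error (SE) derived from that fit, as the size of the change over the root of its F statistic. The spread behind each SE and p was estimated jointly over 24 IZ and BZ libraries of 12 infarcted pigs in 4 conditions. It is not the spread among the 3 Young Early pigs alone, whose 6 libraries fitted by themselves gave 0 calls. A gene was called, and "rose" or "fell" is used of it, where the Benjamini-Hochberg adjusted p over all 14386 genes tested was under 0.05. Library totals were 21.4 M to 39.8 M counts, against 8.11 M to 39.8 M over the series, and all 6 libraries came from library preparation batch 1. Ventricular markers were present in all 6, with the myosin light chain MYL2 at 3733 CPM or more, and the atrial gene SLN was at 0.34 CPM or less.

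The border zone library of pig 2 stood apart from the other 5. Its median correlation with them over 8284 well-detected genes was 0.789, where each of the others reached 0.921 to 0.959. Mitochondrially encoded genes took 10.1% of its counts, against 22.3% to 40.8% in the others. Its 357 genes shorter than 1000 bases lay a median of 1.47 above the other libraries on the log2 scale, and it detected 15064 genes where the others detected 15807 to 16639. The infarct zone library of the same pig also differed from the 4 libraries of the other pigs, with 40.8% mitochondrial counts against 22.3% to 29.9%, and it had the lowest RNA integrity number of the 6 (6.5, against 7.3 to 7.8). When each library was given a quality weight from the data, both libraries of pig 2 had 0.127 and 0.143 (IZ and BZ) and the other 4 had 1.86 to 2.27. The ratio of IZ to BZ went past 2-fold for 893 genes in pig 1, 4412 in pig 2 and 467 in pig 3. Counts of calls are therefore given with all 3 pigs and with pig 2 left out, single genes are given again where leaving it out ends a call or moves a value by over 1.5 times, and the part that these differences in library make-up play was not tested.

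In all 3 pigs together, 1469 genes (10.2% of those tested) were called. Of these, 544 (3.78%) were higher in the infarct zone and 925 (6.43%) were lower. Of the genes that fell, 344 of 925 averaged 100 CPM or more, against 31 of the 544 that rose and 1298 of the 14386 tested. The median change was 1.06 among genes that rose, -0.94 among genes that fell and 0.06 over all genes tested. The direction was the same in the 3 pigs for 1468 of the 1469 called genes, against 49.7% of all genes tested, and the 3 IZ libraries did not overlap the 3 BZ libraries for 974 of them, against 18.9%. Without pig 2, 280 genes (1.92%) were called, 60 higher (0.411%) and 220 lower (1.51%), and 251 of these were also called with all pigs, which is 89.6% of the 280 and 17.1% of the 1469. Every one of the 1469 genes kept its sign without pig 2. Without pig 1 the count was 473, and without pig 3 it was 1419. In all 4 fits 199 genes were called, 29 of them higher and 170 lower.

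**Figure D1:**
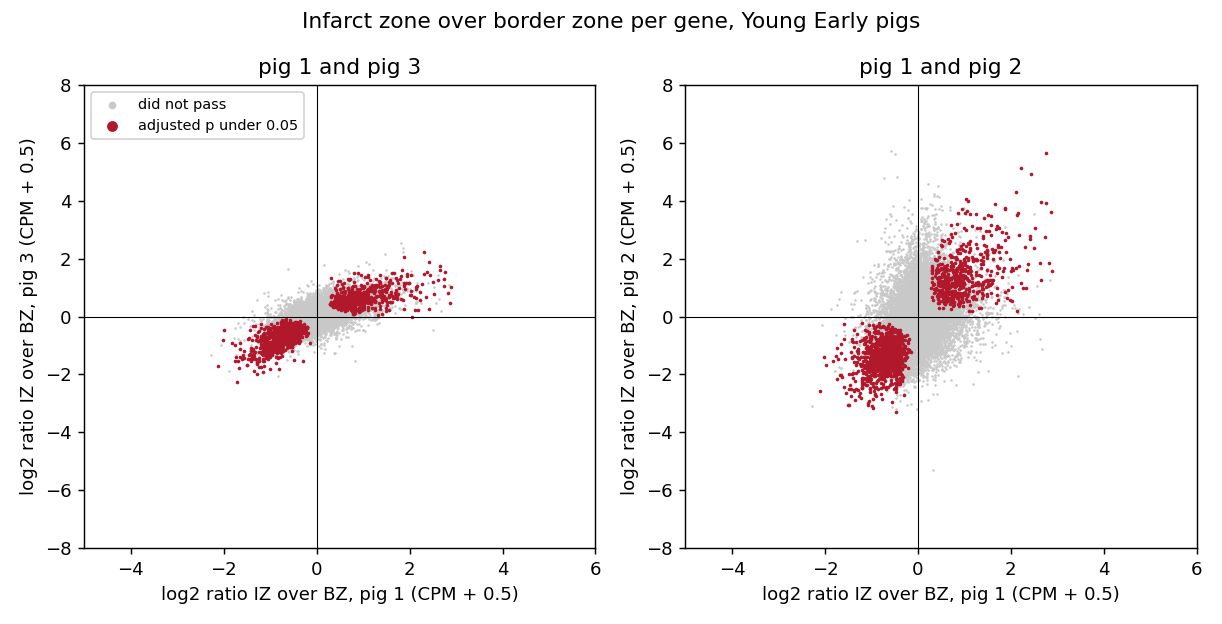
Each point is 1 of the 14386 genes, with the log2 ratio of IZ to BZ in pig 1 on the horizontal axis and in pig 3 (left) or pig 2 (right) on the vertical axis. Ratios use CPM plus 0.5. Red points are the 1469 called genes. The cloud is narrow for pig 3 and stretched along the vertical axis for pig 2, where 4412 genes passed 2-fold.

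Across genes, the ratios of pig 1 and pig 3 correlated at 0.717 (Pearson, as a description over 14386 genes), and those of pig 2 correlated at 0.376 with pig 1 and 0.378 with pig 3. These values share the scaling of the libraries, and genes are not independent replicates.

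Contractile genes were lower in the infarct zone. Of 20 measured genes of the sarcomere and of calcium handling, 11 fell (55%, against 6.43% of all genes tested) and none rose. All 20 had a negative value, with a median of -1.02. MYL2, the regulatory light chain of ventricular myosin, lies on chromosome 14 from 32202466 to 32213672 on the minus strand, and its entry overlaps an unnamed one. It stood at 5148, 8804 and 3733 CPM in the IZ of pigs 1, 2 and 3 and at 12593, 51165 and 11278 CPM in their BZ, with 16776 to 21778 CPM in the sham hearts. All 3 IZ libraries were below all 3 BZ libraries and below the sham hearts. MYL2 fell by 1.81 ± 0.29 (adjusted p = 0.00895), and by 1.44 ± 0.26 without pig 2 (adjusted p = 0.0403). MYL3, the essential light chain, stood at 4310, 7285 and 2995 CPM in IZ and 11310, 28265 and 8127 CPM in BZ, again without overlap, and fell by 1.60 ± 0.29 (adjusted p = 0.00946). TNNC1, the calcium-binding troponin, fell by 1.64 ± 0.30 (adjusted p = 0.00946) and TNNT2, the tropomyosin-binding troponin, by 1.48 ± 0.27 (adjusted p = 0.00929). For TNNT2 the zones overlapped, since the IZ of pig 2 (8781 CPM) was above the BZ of pig 3 (8083 CPM). ACTA1, the skeletal actin that the fetal and newborn heart also makes, belongs to a separate list of cardiac stress and fetal genes. It stood at 6064, 5766 and 2357 CPM in IZ and 12098, 13193 and 8320 CPM in BZ, and fell by 1.34 ± 0.23 (adjusted p = 0.00895).

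The count of sarcomere and calcium handling genes that fell was 7 without pig 1, 6 without pig 2 and 11 without pig 3, and the median without pig 2 was -0.94. MYL2, MYL3, TNNC1, TNNT2 and ACTA1 were called in each of these fits. The atrial-type heavy chain entry MYH6, whose span also holds MYH7 in the RefSeq annotation, fell by 1.03 ± 0.25 (adjusted p = 0.0239) but was not called without pig 1 or without pig 2 (adjusted p = 0.0895 and 0.0621). Some members separated pig 2 from the others. ACTC1, the cardiac actin, stood at 5163, 6551 and 2339 CPM in IZ and 18940, 5424 and 8631 CPM in BZ. It was lower in the IZ of pigs 1 and 3 and slightly higher in that of pig 2, and its value of -1.20 ± 0.39 did not pass (adjusted p = 0.069). Without pig 2 it fell by 1.88 ± 0.23 (adjusted p = 0.0329). The same split appeared for RYR2, the calcium release channel, at 181, 42.3 and 159 CPM in IZ and 391, 31.7 and 265 CPM in BZ, and for ATP2A2, the calcium pump of the sarcoplasmic reticulum. Neither passed with pig 2 (-0.49 ± 0.37 and -0.49 ± 0.38, adjusted p = 0.377 and 0.393) or without it (-0.92 ± 0.39 and -0.82 ± 0.43, adjusted p = 0.221 and 0.31).

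Among 8 measured ion channel genes 2 fell (25%, against 6.43% of all genes tested), or 1 without pig 2. KCNQ1, the channel of the slow delayed rectifier current, stood at 59.7, 52 and 47.4 CPM in IZ and 121, 88.5 and 94.1 CPM in BZ, with no overlap. It fell by 0.93 ± 0.18 (adjusted p = 0.0101) and kept its call without pig 2, but not without pig 1 (adjusted p = 0.0548). None of the 12 cardiac transcription factors tested was called. CKM, the muscle creatine kinase that heart and skeletal muscle share, stood at 1048, 1594 and 938 CPM in IZ and 3495, 3407 and 2497 CPM in BZ. It fell by 1.42 ± 0.31 (adjusted p = 0.0171), and was not called without pig 1 (adjusted p = 0.0771). Its entry overlaps MARK4. It was the called gene among 6 tested on a list for skeletal muscle (16.7%, against 10.2% of all genes tested). From that list TNNT3 and PVALB had no count in any of the 6 libraries.

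Nuclear genes for the respiratory chain had the highest share of called members among the 36 lists examined. Of 27 measured genes of oxidative phosphorylation, 25 fell and all 27 had a negative value, with a median of -1.17, against 6.43% of all genes called lower. The count was 21, 20 and 22 without pigs 1, 2 and 3, and the median without pig 2 was -1.02. NDUFV1, the NADH-binding subunit of complex I, on chromosome 2 from 4955536 to 4964429, stood at 226, 462 and 180 CPM in IZ and 509, 2262 and 422 CPM in BZ, with 715 to 838 CPM in the sham hearts. Each pig's IZ was below its own BZ. NDUFV1 fell by 1.56 ± 0.25 (adjusted p = 0.00895), and by 1.20 ± 0.23 without pig 2. COX6A2, the heart and muscle form of a cytochrome oxidase subunit whose entry overlaps ITGAM, fell by 1.81 ± 0.31 (adjusted p = 0.00895). COX7A1 and COX4I1, other subunits of that complex, fell by 1.73 ± 0.31 and 1.52 ± 0.30, with adjusted p-values of 0.0529 and 0.0513 without pig 2. SDHA, the flavoprotein of complex II, fell by 1.15 ± 0.21 and NDUFS3, a core subunit of complex I, by 1.33 ± 0.18. SLC25A4, the heart form of the ADP/ATP exchanger, stood at 1521, 2688 and 1457 CPM in IZ and 3713, 7314 and 4292 CPM in BZ, and fell by 1.43 ± 0.27 (adjusted p = 0.0101). COX6A2 and SLC25A4 lie outside the list and are not among its 27 genes. SDHA, NDUFS3 and SLC25A4 were named after their values were seen.

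The 13 genes encoded by the mitochondrial genome are described apart because the pigs differed. None was called. Their median ratio was -0.59 in pig 1, 2.26 in pig 2 and -0.78 in pig 3, so pig 2 was of the opposite sign to the others. The fitted median was 0.24 with all pigs and -0.68 without pig 2. The 12 cytosolic ribosomal protein genes tested also set pig 2 apart, with medians of 0.09, -1.15 and 0.04 in pigs 1, 2 and 3 and no call.

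Genes for the use of fatty acids were lower as well. Of 23 measured, 15 fell (65.2%, against 6.43% of all genes tested) and none rose, with a median of -0.82. The count was 7, 6 and 8 without pigs 1, 2 and 3. FABP3, the fatty acid carrier of the muscle cytoplasm, on chromosome 6 from 87941137 to 87951610, overlaps ZCCHC17 and stood at 388, 726 and 343 CPM in IZ and 909, 2355 and 1152 CPM in BZ. The zones did not overlap, and FABP3 fell by 1.56 ± 0.19 (adjusted p = 0.00751) and by 1.49 ± 0.20 without pig 2 (adjusted p = 0.0329). CPT1B, the muscle enzyme that lets long-chain fatty acids into mitochondria, stood at 338, 509 and 312 CPM in IZ and 771, 1465 and 723 CPM in BZ, and fell by 1.31 ± 0.20 (adjusted p = 0.00895). ACADVL, the first enzyme of long-chain oxidation, fell by 1.31 ± 0.22 (adjusted p = 0.00895). LPL, which releases fatty acids from lipoproteins, fell by 1.39 ± 0.27 (adjusted p = 0.0115), and PLIN5, a coat protein of lipid droplets, by 1.61 ± 0.37 (adjusted p = 0.0218). Neither LPL nor PLIN5 was called without pig 2, and PLIN5 was also lost without pig 1 or pig 3. PPARGC1A, a coactivator of mitochondrial genes, had a value of -0.58 ± 0.21 that did not pass (adjusted p = 0.0979).

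**Figure D2:**
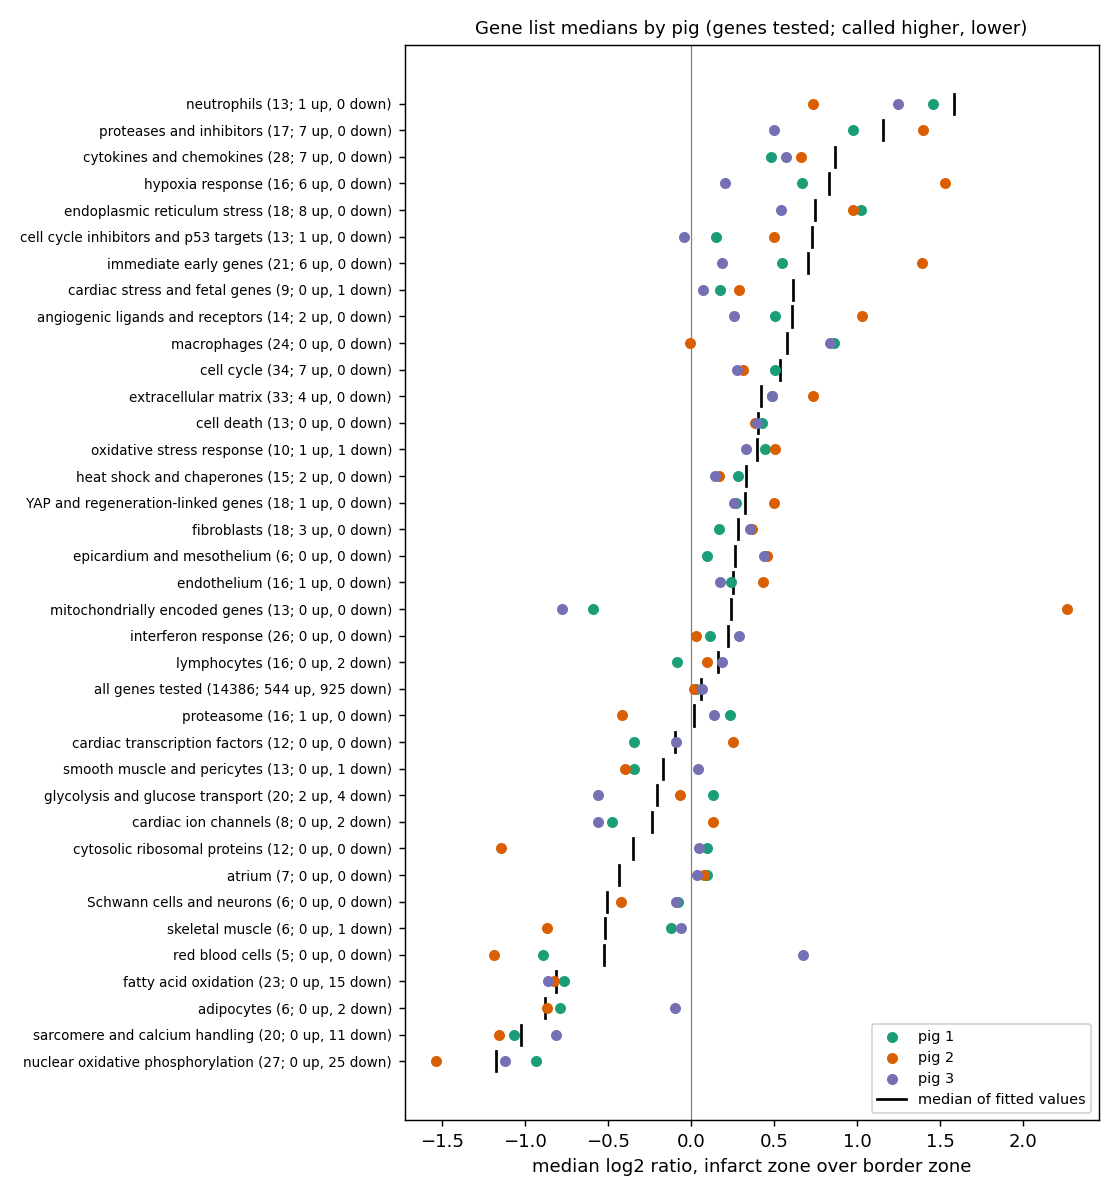
Each row is 1 gene list, with the number of its genes tested and called, and coloured points give the median log2 ratio of IZ to BZ in each pig. Black bars give the median of the fitted log2 fold changes. Oxidative phosphorylation, sarcomere and fatty acid genes lie below 0 in all 3 pigs, and the mitochondrially encoded genes lie at 2.26 in pig 2 and below 0 in the others.

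Genes of glucose metabolism moved in both directions. Of 20 measured, 2 rose and 4 fell (30% called, against 10.2% of all genes tested). Without pig 2 none rose and 3 fell. The muscle isoforms ENO3 (enolase) and PGAM2 (phosphoglycerate mutase) fell by 1.52 ± 0.28 and 1.76 ± 0.31 (adjusted p = 0.00951 and 0.00895) and kept their calls with each pig left out. LDHA, the lactate dehydrogenase subunit of glycolytic tissue, stood at 414, 401 and 396 CPM in IZ and at 112, 29.8 and 330 CPM in BZ. The IZ levels were nearly equal, and the BZ levels ranged widely between pigs. LDHA rose by 1.94 ± 0.53 (adjusted p = 0.0379), and its value without pig 2 was 1.07 ± 0.41. PFKFB3, which makes the main activator of phosphofructokinase, stood at 51.3, 49.7 and 14.9 CPM in IZ and 6.63, 3.61 and 10.7 CPM in BZ and rose by 2.41 ± 0.54 (adjusted p = 0.0187). Neither was called without pig 1 or without pig 2. HK2, the inducible hexokinase, was higher in the IZ of pigs 1 and 2 and lower in that of pig 3, and its value of 1.97 ± 0.75 did not pass (adjusted p = 0.103, and 1.01 ± 0.80 without pig 2).

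Of 16 genes of the hypoxia response, all had a positive value in the fit with all pigs and 6 rose (37.5%, against 3.78% of all genes tested). The median was 0.83, or 0.46 without pig 2. In pigs 1, 2 and 3, 1, 2 and 5 of the 16 were lower in IZ. None of the 16 was called without pig 1 or without pig 2, and 9 were called without pig 3. NDRG1, a hypoxia-induced stress gene, stood at 48.6, 68.9 and 36.1 CPM in IZ and 13.5, 26.5 and 23.3 CPM in BZ. It rose by 1.28 ± 0.28 (adjusted p = 0.0171), with no overlap between the zones. VEGFA, the main angiogenic growth factor, stood at 224, 168 and 87.4 CPM in IZ and 145, 25.7 and 142 CPM in BZ. It was lower in the IZ of pig 3 and did not pass (0.83 ± 0.52, adjusted p = 0.293), and its value was -0.038 without pig 2.

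CITED1, a transcriptional coregulator, was among the genes with the largest fall. It is on the X chromosome from 58177291 to 58185299. It stood at 34.5, 51.2 and 30.3 CPM in IZ and 88.4, 385 and 112 CPM in BZ, with 184 to 207 CPM in the sham hearts. The zones did not overlap, and CITED1 fell by 2.05 ± 0.28 (adjusted p = 0.00751) and by 1.62 ± 0.25 without pig 2 (adjusted p = 0.0367).

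Genes of the endoplasmic reticulum stress response were higher in the infarct zone. Of 18 measured, all had a positive value in the fit with all pigs and 8 rose (44.4%, against 3.78% of all genes tested). The pigs were split: 8 of the 18, the chaperones CALR and DNAJB11 among them, were lower in the IZ of pig 2, against 1 each in pigs 1 and 3. The count was 3, 6 and 9 without pigs 1, 2 and 3, and the median was 0.75 with all pigs and 0.80 without pig 2. Of the 6 called without pig 2, 3 were among the 8. HSPA5, the chaperone BiP that senses unfolded proteins in this compartment, is on chromosome 1 from 265930042 to 265947997. It stood at 618, 953 and 491 CPM in IZ and 223, 175 and 251 CPM in BZ, with 86.5 to 143 CPM in the sham hearts. The zones did not overlap, and BZ was above every sham heart. HSPA5 rose by 1.62 ± 0.26 (adjusted p = 0.00895), and by 1.22 ± 0.21 without pig 2 (adjusted p = 0.0402).

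HYOU1, a partner chaperone induced by low oxygen, stood at 115, 142 and 99.3 CPM in IZ and 44.7, 53.1 and 55.1 CPM in BZ and rose by 1.21 ± 0.20 (adjusted p = 0.00895). DNAJC3, which restrains the kinase PERK, stood at 16.5, 18.4 and 17.4 CPM in IZ and 7.39, 9.39 and 8.65 CPM in BZ, so the zones were well apart. It rose by 1.04 ± 0.19 (adjusted p = 0.00985) and had an adjusted p of 0.0505 without pig 1. EDEM1, which directs misfolded glycoproteins to degradation, rose by 1.54 ± 0.29, and PDIA3, which forms disulfide bonds, by 1.03 ± 0.20 (adjusted p = 0.0102 and 0.0114). Both lie outside the fixed lists and were named after their values were seen. TRIB3, a pseudokinase of the stress response, rose by 1.91 ± 0.53 (adjusted p = 0.0398) but not without pig 1 or pig 2. Of 15 cytosolic heat shock and chaperone genes 2 rose (13.3%, against 3.78% of all genes tested), or 1 without pig 2. HSPH1, a large chaperone of the cytosol, stood at 30.6, 34.9 and 39.8 CPM in IZ and 15, 9.74 and 20.1 CPM in BZ and rose by 1.27 ± 0.23 (adjusted p = 0.00895).

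The oxidative stress list was split, with 1 gene that rose and 1 that fell (20% called, against 10.2% of all genes tested). Of 10 measured, SRXN1, which repairs peroxiredoxins, rose by 1.75 ± 0.42 (adjusted p = 0.0251). SOD2, the mitochondrial superoxide dismutase, stood at 154, 156 and 172 CPM in IZ and 290, 334 and 349 CPM in BZ, and fell by 1.01 ± 0.20 (adjusted p = 0.0122). Neither was called without pig 2, and SRXN1 was not called without pig 1 either. SESN2, a stress-induced inhibitor of growth signalling that is not on this list, rose by 2.46 ± 0.50 (adjusted p = 0.0131). It stood at 20.1 CPM in the IZ of pig 2 against 6.99 and 3.34 CPM in the IZ of pigs 1 and 3. SESN2 lost its call without pig 1 or pig 2.

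Immediate early genes encode transcription factors that cells switch on within minutes of a stimulus. Of 21 measured, 6 rose (28.6%, against 3.78% of all genes tested) and none fell. The count was 2, 3 and 8 without pigs 1, 2 and 3. A negative value was found for 5 of the 21. Of these, NR4A3, NR4A1 and KLF2 were lower in the IZ of each pig and were not called. JUNB, an AP-1 subunit, stood at 39.8, 56.4 and 45 CPM in IZ and 13.1, 4.57 and 28.2 CPM in BZ. It rose by 1.89 ± 0.42 (adjusted p = 0.0184), and by 1.13 ± 0.25 without pig 2 (adjusted p = 0.0442). EGR1, a zinc finger factor of growth and injury, stood at 27.1, 28.4 and 16.2 CPM in IZ and 9.93, 3.91 and 8.58 CPM in BZ and rose by 1.70 ± 0.33 (adjusted p = 0.0104). MYC, which drives growth and biosynthesis, stood at 24.4, 36.5 and 22.9 CPM in IZ and 11.3, 1.83 and 13.9 CPM in BZ. It rose by 1.85 ± 0.50 with all pigs (adjusted p = 0.0363) and by 0.91 ± 0.15 without pig 2 (adjusted p = 0.0374). The size thus depended on pig 2, whose BZ value was the lowest and whose IZ value was the highest. EGR1 kept its call with each pig left out, while JUNB and MYC lost theirs without pig 1 (adjusted p = 0.0556 and 0.0564).

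FOS and FOSL1, AP-1 subunits, rose by 2.36 ± 0.46 and 2.51 ± 0.49 (adjusted p = 0.011 and 0.0114), with adjusted p-values of 0.0506 and 0.081 without pig 2, and FOSL1 was not called without pig 1 (adjusted p = 0.0582). The FOSL1 entry overlaps CCDC85B. MAFF and KLF5, given next, lie outside the immediate early list. MAFF, a small Maf factor, stood at 32.9, 65.4 and 16.1 CPM in IZ and 7.27, 2.87 and 9.79 CPM in BZ and rose by 2.38 ± 0.53 (adjusted p = 0.0178) and by 1.44 ± 0.32 without pig 2 (adjusted p = 0.044), again not without pig 1 (adjusted p = 0.0613). KLF5, a factor of vessel wall and fibroblast remodelling, stood at 8.26, 5.73 and 8.48 CPM in IZ and 1.14, 0.478 and 1.91 CPM in BZ. It rose by 2.77 ± 0.57 (adjusted p = 0.0136), with an adjusted p of 0.0853 without pig 2 and 0.0576 without pig 1. ATF3, an early factor of the stress response, did not pass. Its levels were 23.7, 37.6 and 33 CPM in IZ and 28.6, 9.92 and 51.7 CPM in BZ, lower in the IZ of pigs 1 and 3 and higher in that of pig 2 (0.27 ± 0.50, adjusted p = 0.734).

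**Figure D3:**
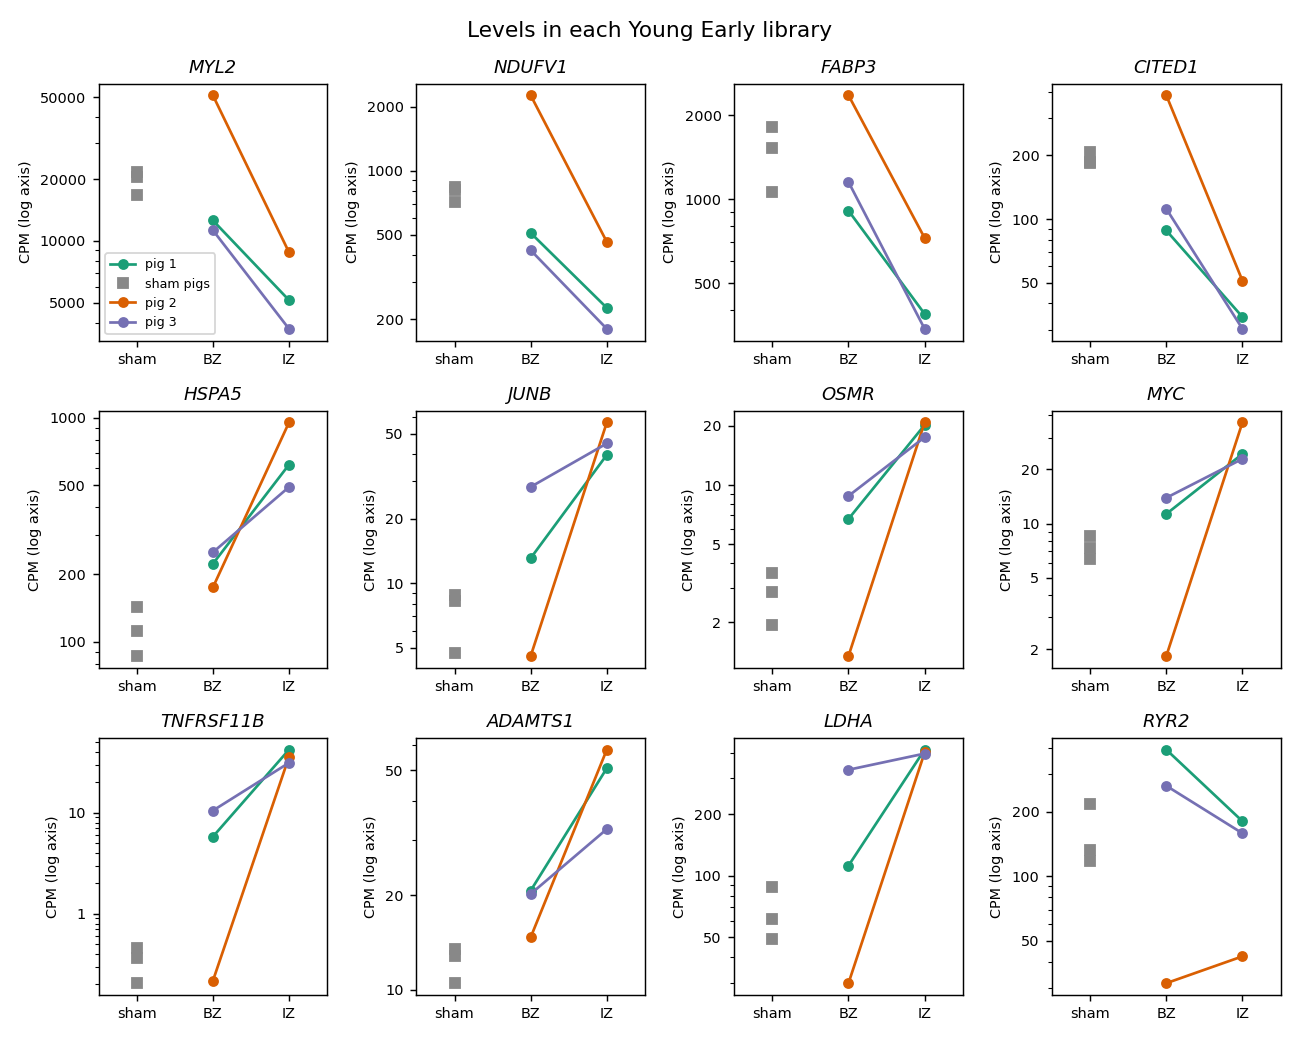
Levels in CPM, on log axes, of 12 genes in the sham hearts (grey squares) and in the BZ and IZ of pigs 1 to 3 (coloured points joined by a line for each pig). MYL2, NDUFV1, FABP3 and CITED1 are lower in the IZ of each pig, and RYR2 is lower in pigs 1 and 3 but not in pig 2.

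Among 28 measured cytokines, chemokines and their receptors and regulators, 7 rose (25%, against 3.78% of all genes tested) and none fell, with 2, 2 and 5 without pigs 1, 2 and 3. OSMR, the receptor of oncostatin M, on chromosome 16 from 24041345 to 24102177, stood at 20.2, 20.8 and 17.5 CPM in IZ and 6.72, 1.35 and 8.8 CPM in BZ, with 1.94 to 3.58 CPM in the sham hearts. The zones did not overlap, and OSMR rose by 2.02 ± 0.40 (adjusted p = 0.0117) and by 1.29 ± 0.18 without pig 2 (adjusted p = 0.0329). Its entry overlaps FYB1, a gene of white blood cells. SOCS3, the feedback inhibitor that such cytokine receptors induce, stood at 29.2, 49.2 and 25.2 CPM in IZ and 9.55, 5 and 15.3 CPM in BZ and rose by 1.83 ± 0.38 (adjusted p = 0.0139), and by 1.16 ± 0.26 without pig 2 (adjusted p = 0.0439). Its call was also kept without pig 1 and without pig 3. LIF, a ligand of the interleukin-6 family, rose by 2.04 ± 0.55 (adjusted p = 0.0365) at levels of 1.43 to 4.25 CPM in IZ and 0.44 to 0.739 CPM in BZ. It was called in none of the fits without 1 pig. IL6 itself stayed at 0.59 CPM or less in all 6 libraries and did not pass (adjusted p = 0.103), and IL11, of the same family, did not pass either (adjusted p = 0.0595). CCL2, which attracts monocytes, stood at 106, 146 and 82.8 CPM in IZ and 28.3, 112 and 45.5 CPM in BZ, and at 7.59 to 9.82 CPM in the sham hearts. It was higher in the IZ of each pig but overlapped between zones and did not pass (1.04 ± 0.35, adjusted p = 0.0748, and 1.38 ± 0.43 without pig 2).

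TNFRSF11B, the decoy receptor osteoprotegerin, had the largest rise that the naming rule gave. It stood at 42.1, 35.7 and 31.2 CPM in IZ and 5.79, 0.217 and 10.5 CPM in BZ, against 0.206 to 0.457 CPM in the sham hearts. The IZ levels were close together and the BZ of pig 2 was at the sham level. TNFRSF11B rose by 3.24 ± 0.78 (adjusted p = 0.0244), but had an adjusted p of 0.0703 without pig 1 and 0.0731 without pig 2. CRTAC1, a secreted matrix protein first known from cartilage, stood at 13, 9.92 and 23.3 CPM in IZ and 1.65, 0.174 and 6.67 CPM in BZ and rose by 3.05 ± 0.70 (adjusted p = 0.02). ARG1, the arginase that splits arginine into ornithine and urea, stood at 9.41, 12.2 and 10.3 CPM in IZ and 2.2, 0.435 and 2.09 CPM in BZ and rose by 2.85 ± 0.73 (adjusted p = 0.0314). CDA, cytidine deaminase, and SLIT2, a guidance ligand, rose by 2.82 ± 0.62 and 2.46 ± 0.55 (adjusted p = 0.0176 and 0.0181). CRTAC1, ARG1, CDA and SLIT2 were not called without pig 1 or without pig 2.

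Of 17 proteases and protease inhibitors tested, 7 rose (41.2%, against 3.78% of all genes tested) and none fell. The count was 1, 1 and 7 without pigs 1, 2 and 3. The call that was kept each time was that of ADAMTS1, a protease of proteoglycans, at 50.8, 58.2 and 32.5 CPM in IZ and 20.7, 14.7 and 20.2 CPM in BZ, which rose by 1.32 ± 0.24 (adjusted p = 0.00895). PLAT, an activator of plasminogen, rose by 1.80 ± 0.49 and PLAUR, the receptor of another such activator, by 1.53 ± 0.44 (adjusted p = 0.0387 and 0.0457), and neither was called without pig 1 or pig 2, where PLAT had 0.97 ± 0.28 without pig 2. TIMP1, an inhibitor of matrix metalloproteases, was at 519, 720 and 545 CPM in IZ and 89.5, 743 and 270 CPM in BZ, against 32.5 to 47 CPM in the sham hearts. The BZ of pig 2 was as high as its IZ, and TIMP1 did not pass (1.15 ± 0.52, adjusted p = 0.153, and 1.77 ± 0.60 without pig 2, adjusted p = 0.138).

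Of 33 matrix genes 4 rose (12.1%, against 3.78% of all genes tested) and none fell, and the count was 1, 0 and 3 without pigs 1, 2 and 3. TNC, the matrix glycoprotein tenascin-C of wounds, stood at 160, 124 and 263 CPM in IZ and 27.7, 23.8 and 115 CPM in BZ, against 3.51 to 6.41 CPM in the sham hearts, and rose by 2.03 ± 0.59 (adjusted p = 0.0479). THBS1, which activates TGF-beta, stood at 85.7, 53.5 and 124 CPM in IZ and 26.7, 3.13 and 43 CPM in BZ and rose by 2.32 ± 0.50 (adjusted p = 0.0156). POSTN, periostin, was higher in the IZ of each pig but overlapped between pigs (94.1, 93.9 and 266 CPM against 31.5, 31.2 and 115 CPM), and rose by 1.46 ± 0.37 (adjusted p = 0.0301). None of TNC, THBS1 and POSTN was called without pig 2, TNC and POSTN were not called without pig 1, and POSTN was not called without pig 3 (adjusted p = 0.0507). The fibrillar collagen gene COL1A1 stood at 409 to 951 CPM in IZ and 423 to 754 CPM in BZ, so the zones overlapped.

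Markers of other cells were mostly not called. The summed level of 15 neutrophil genes was 68.5, 60.9 and 74 CPM in IZ and 21.2, 37.5 and 27.2 CPM in BZ, against 12.8 to 15.8 CPM in the sham hearts, so every IZ library was above every BZ library. MMP8 had no count in any of the 6. Of 13 neutrophil genes tested 1 rose (7.69%, against 3.78% of all genes tested). This was AQP9, a water and glycerol channel of these cells, which rose by 1.58 ± 0.44 (adjusted p = 0.0411), with no call in any of the fits without 1 pig. The calcium-binding S100A8 stood at 6.87, 5.84 and 8.29 CPM in IZ and 1.52, 5.91 and 1.21 CPM in BZ and did not pass (1.61 ± 0.60, adjusted p = 0.0976, and 2.47 ± 0.64 without pig 2). The neutrophil list had a median of 1.59, and 11 of its 12 members with a count were positive.

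None of 24 macrophage genes was called, and their summed level overlapped between IZ (482 to 686 CPM) and BZ (363 to 603 CPM). MSR1, a scavenger receptor, had a value of 1.36 ± 0.49 (adjusted p = 0.0892), SPP1, osteopontin, of 1.80 ± 0.82 (adjusted p = 0.159), and CD68, a lysosomal protein whose entry overlaps KDM6B and EIF4A1, of 1.01 ± 0.51 (adjusted p = 0.198). Each of the 3 was higher in the IZ of each pig, but 6 of the 24 had a negative value. C1QA and C1QB, complement subunits of resident macrophages, and FCGR1A, an antibody receptor, were lower in the IZ of each pig. The log2 ratios of C1QB were -0.92, -0.80 and -0.13 in pigs 1, 2 and 3. In pig 2 12 of the 24 were lower in IZ. None of 26 interferon-induced genes was called. Among 16 lymphocyte genes 2 fell (12.5%, against 6.43% of all genes tested), or none without pig 1 or pig 2. The summed sarcomere level was 49402, 64497 and 40054 CPM in IZ and 116617, 211579 and 85175 CPM in BZ, and the part that the share of muscle cells in each biopsy plays in the results was not tested.

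Of 18 fibroblast genes 3 rose (16.7%, against 3.78% of all genes tested), or none without pig 2, and 7 had a negative value. The matrix genes DPT, FBLN1 and MFAP5 were lower in the IZ of each pig and were not called. Among those that rose was PDGFRA, the receptor for platelet-derived growth factor, at 5.51, 2.72 and 8.69 CPM in IZ and 2.28, 0.478 and 2.9 CPM in BZ (1.68 ± 0.35, adjusted p = 0.015). Of 16 endothelial genes 1 rose (6.25%, against 3.78% of all genes tested). This was ANGPT2, the ligand that loosens vessel walls, whose entry lies within MCPH1, at 14.3, 30.3 and 14.6 CPM in IZ and 7.81, 2.87 and 7.81 CPM in BZ (1.64 ± 0.41, adjusted p = 0.0277, and 0.89 ± 0.22 without pig 2). FLT4, the lymphatic VEGF receptor, is not among the 16 and rose by 1.46 ± 0.36 (adjusted p = 0.0261) at 4.53 CPM or less. PECAM1, a general marker of endothelium, had a value of 0.36 ± 0.19 (adjusted p = 0.214). Among 13 smooth muscle and pericyte genes 1 fell (7.69%, against 6.43% of all genes tested). This was MYH11, the smooth muscle myosin, which fell by 0.86 ± 0.24 (adjusted p = 0.0387). Not called without pig 2 were PDGFRA, ANGPT2, FLT4 and MYH11, without pig 1 FLT4 and MYH11, and without pig 3 FLT4.

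Of 34 cell cycle genes, 7 rose (20.6%, against 3.78% of all genes tested) and none fell, with a median of 0.53. The count was 0, 3 and 5 without pigs 1, 2 and 3. A negative value was found for 6 of the 34, and 3, 10 and 3 were lower in the IZ of pigs 1, 2 and 3. MCM6, a subunit of the replicative helicase, stood at 24.8, 18.3 and 34.4 CPM in IZ and 12.6, 11.9 and 19.7 CPM in BZ, with 5.5 to 8.14 CPM in the sham hearts. It was higher in the IZ of each pig, and rose by 0.80 ± 0.17 (adjusted p = 0.0136) and by 0.89 ± 0.19 without pig 2 (adjusted p = 0.0418). Its adjusted p without pig 1 was 0.0683. CDK1, the kinase that starts mitosis, stood at 8.48, 11 and 13 CPM in IZ and 4.18, 2.96 and 11.3 CPM in BZ and rose by 0.99 ± 0.27 (adjusted p = 0.0394), without a call when pig 1 or pig 2 was left out (0.58 ± 0.23 without pig 2). The cell types that these transcripts come from were not tested. CCND1, cyclin D1, stood at 64.5 to 118 CPM in IZ and 64.6 to 213 CPM in BZ.

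Of 9 tested cardiac stress and fetal genes 1 was called (11.1%, against 10.2% of all genes tested). This was ACTA1, which fell as described above. ANKRD1, a stretch-responsive repeat protein, stood at 3886, 6179 and 3793 CPM in IZ and 2244, 4308 and 2620 CPM in BZ, against 538 to 1613 CPM in the sham hearts, and did not pass (0.61 ± 0.22, adjusted p = 0.0846). NPPB, the natriuretic peptide BNP, stood at 411 to 1317 CPM in IZ and 332 to 1288 CPM in BZ, with 26.6 to 546 CPM in the sham hearts.

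The zone difference of Young Early pigs was then set against those of the other conditions, which share no library with it. All Young Early libraries came from preparation batch 1 and all Old Early ones from batch 2, so batch and condition cannot be told apart for Old Early. Young Late mixed the 2 batches, also within pigs. Its replicate 1 had IZ in batch 1 and BZ in batch 2, and its replicate 3 had the reverse. Batch thus enters the zone difference of Young Late but not that of Young Early. With batch as a term, 0 genes were called for the Young Late zones or for their difference from Young Early. By edgeR, no gene was called in either test of a difference, and none was called for IZ against BZ within Old Early or within Young Late. At an unadjusted p under 0.05, 1482 genes (10.3%) differed from Old Early and 1941 (13.5%) from Young Late, and the lowest adjusted p-values were 0.482 and 0.291. Within Old Early 850 genes (5.91%) and within Young Late 1396 genes (9.7%) had an unadjusted p under 0.05. The DESeq2 test called 110 genes for the difference from Old Early and 236 for that from Young Late, or 11 and 56 without pig 2, and 5 and 79 genes for the zones within Old Early and Young Late. The number of calls in 1 condition and not in another is no test of a difference, so the values are given side by side.

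For MYL2 the zone difference was -1.81 ± 0.29 in Young Early, -0.65 ± 0.29 in Old Early and -0.27 ± 0.28 in Young Late. The difference between Young Early and Old Early was -1.15 ± 0.40 (adjusted p = 0.482), and that between Young Early and Young Late was -1.54 ± 0.40 (adjusted p = 0.291). FABP3 had -1.56 ± 0.19, -0.45 ± 0.19 and -0.24 ± 0.19 in the same order, and CITED1 had -2.05 ± 0.28, -0.56 ± 0.27 and -0.17 ± 0.27. HSPA5 had 1.62 ± 0.26, 0.41 ± 0.25 and -0.04 ± 0.25, and OSMR had 2.02 ± 0.40, 0.34 ± 0.36 and 0.43 ± 0.39. CKM was less apart, with -1.42 ± 0.31, -1.05 ± 0.31 and -0.63 ± 0.31. None of these differences between conditions passed. Without pig 2 the Young Early values were -1.44 for MYL2, -1.49 for FABP3, -1.62 for CITED1, 1.22 for HSPA5, 1.29 for OSMR and -1.57 for CKM. The list medians were -1.17, -0.38 and -0.29 for oxidative phosphorylation, -1.02, -0.44 and -0.35 for the sarcomere, and 0.75, 0.31 and 0.16 for endoplasmic reticulum stress in Young Early, Old Early and Young Late. For the macrophage list they were 0.58, -0.16 and 1.30. Without pig 2 the Young Early medians of the 4 lists were -1.02, -0.94, 0.80 and 0.77.

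**Figure D4:**
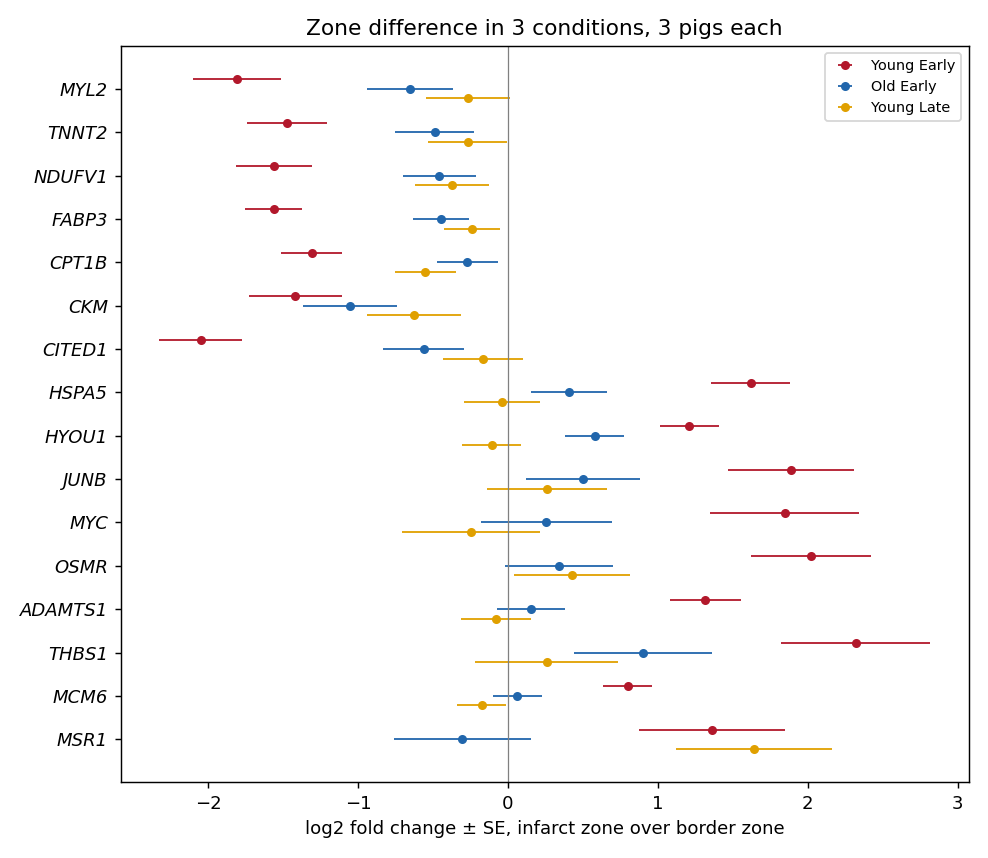
Log2 fold changes of IZ over BZ ± SE (horizontal axis) for 16 genes in Young Early, Old Early and Young Late pigs, with 3 pigs in each condition. MYL2 lies at -1.81, -0.65 and -0.27, and no difference between conditions passed for any of these genes by edgeR.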

How the data were processed

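Libraries were prepared from polyA RNA with a stranded TruSeq kit and sequenced in pairs of 76 bp on a NextSeq, per the labels' protocols. Tools named in the submitters' processing notes are featureCounts (from Subread 1.5.1), STAR, Trimmomatic 0.36 and bcl2fastq 2.19.0.316. The authors deposited raw counts per gene. The genome build, annotation and strand setting are not given in the sources used here. Coordinates are those of the deposited table. For 13721 gene symbols matched to RefSeq Sscrofa11.1, 98.9% were on the same chromosome and 95.9% started within 50 kb. Without a strand setting, overlapping genes cannot be told apart. Symbols were found for 14857 of 25880 identifiers.

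Counts of the 24 libraries from 12 infarcted pigs were filtered with filterByExpr (minimum count 10, minimum total 15), scaled by TMM and fitted with edgeR 4.0.16 in R 4.3.3 (quasi-likelihood, robust), with the animal as a block and 1 zone effect for each of 4 conditions, which left 8 residual degrees of freedom. The pairing comes from the pig numbers in the library titles. For 1 library, Old Late BZ replicate 3, another field of the labels names a different pig. That conflicting label was tried as an alternative. The deviations of the IZ and BZ libraries of a Young Early pig from their group means correlated at 0.592 to 0.65, and those of Young Late pigs at -0.287 to -0.0595. CPM levels use TMM factors over all 36 libraries, and ratios within a pig use CPM plus 0.5. The fit was also run on simulated counts with known zone differences, and that outcome is not reported here.

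The comparison, 36 gene lists and the naming rule were chosen with earlier results of these data known. The rule takes 12 called genes in each direction by size of change (mean log2 CPM of at least 1), up to 4 called members of each list (or the 2 with the smallest p), and a panel of 33 genes, 30 of them in the table. It gave 126 genes, of which 82 were called and 29 also without pig 2, and those printed were picked from them after their values were seen. SOCS3, EGR1, ADAMTS1 and ACADVL were added to them, also after their values were seen. Alternatives were DESeq2 1.42.0 (size factors and test), no count filter, no block, a random block in limma-voom (limma 3.58.1), a count of called genes past 2-fold, no mitochondrially encoded genes, RNA integrity or batch as a term, a conflicting animal label, fewer conditions, and each pig or library left out. For genes with few counts, counting error adds to the spread between pigs. A few genes that the rule gave are not reported here.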

Additional observations from a re-analysis of the deposited data

Results flagged for a closer look

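For 3 gene lists, the median ratio of IZ to BZ was of one sign in every Young Early pig and of the other sign in every pig of another condition, and these differences were not tested. The skeletal muscle list had a middle value of -0.12 in Young Early and 0.26 in Old Early, a difference of -0.38. The adipocyte list had -0.79 in Young Early and 0.25 in Young Late, a difference of -1.04. In Young Early 2 of its members were called (33.3% of those tested, against 10.2% of all genes tested). PLIN4, a coat protein of lipid droplets, fell by 1.08 ± 0.24 (adjusted p = 0.0184 by edgeR) and by 1.37 without pig 2 (adjusted p = 0.0374). It was not called without pig 1 or without pig 3. FABP4, a fatty acid carrier that capillary endothelium also makes, stood at 94.6, 154 and 129 CPM in IZ and 166, 428 and 248 CPM in BZ, with no call when any 1 pig was left out. The list of Schwann cells and neurons had -0.09 in Young Early and 0.15 in Young Late, a difference of -0.24. Each of the 3 lists has 6 genes tested, and 36 lists were looked at against 2 conditions. Medians of single pigs came close to 0. The skeletal muscle list reached -0.06 in a Young Early pig and 0.009 in an Old Early pig. The adipocyte list reached -0.096 in a Young Early pig and 0.083 in a Young Late pig. For Schwann cells and neurons these values were -0.077 and 0.036.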

How the results depend on the processing

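With all 3 pigs, 1469 genes were called for Young Early IZ against BZ. The count was 2570 with the DESeq2 test, 2255 in limma-voom with a random replicate block, 3457 in limma-voom with sample quality weights and a fixed replicate block, 915 with the conflicting animal label and 708 when only called genes past 2-fold were counted. With no replicate block it was 249, and leaving out 1 library in that fit gave 4, 0 and 62 without IZ replicates 1, 2 and 3 and 702, 11 and 1701 without BZ replicates 1, 2 and 3. Young Early libraries alone, with 2 residual degrees of freedom, gave 0 (2054 at an unadjusted p under 0.05). Leaving out each pig gave 280 to 1419. Without pig 2, chosen after seeing the data, the count was 971 by DESeq2, 619 by limma-voom and 3028 with Young Early libraries alone. The fit behind the 3028 held 4 libraries of 2 pigs, with fewer residual degrees of freedom than the one that gave 0. DESeq2 size factors, no count filter, no mitochondrially encoded genes, RNA integrity and no Young Late libraries kept it within 1.5 times, and the cause of the other shifts was not tested.

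For the difference from Old Early, DESeq2 called 110 genes (11 without pig 2) in place of 0, and for that from Young Late 236 (56 without pig 2). Within Old Early it called 5, and leaving out pigs gave 0 to 1. Within Young Late it called 79, and leaving out pigs gave 0 to 8. No other alternative called a gene in these comparisons. Of 80 genes with a fold change in the Results section, 64 were called, none of these changed sign, and 25 kept their call without each pig in turn. PLIN4, AREG, ZFAND2A, IPO5 and BMP4, given only in the additional observations, are not among the 80. VEGFA and ATF3, not called with all pigs, changed sign. VEGFA had -0.038 to 1.67 with each pig left out, and without pig 2 it had -0.078 with Young Early libraries alone, -0.070 by DESeq2 and -0.031 by limma-voom. With all pigs and quality weights it had -0.031. ATF3 had -0.46 to 0.82 with each pig left out, and without pig 2 it had -0.50 with Young Early libraries alone, -0.49 by DESeq2 and -0.46 by limma-voom. With all pigs and quality weights it had -0.44. With no replicate block ATF3 had -0.086 without IZ replicate 2 and -0.34 without BZ replicate 2. Of 827 list medians under 23 alternatives, 38 changed sign, 2 of them from a main median past 0.5.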

Other observations

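Some genes outside the lists were called with all pigs and without pig 2, and were picked after their values were seen. AREG, an EGF-family ligand, stood at 0.588, 1.59 and 1.78 CPM in IZ and 0.0845, 0.174 and 0.293 CPM in BZ, and rose by 2.80 ± 0.41 (adjusted p = 0.0083, and 0.0418 without pig 2), at levels of few reads. ZFAND2A, a zinc finger protein induced by heat and arsenite, stood at 19.2, 36.2 and 14.7 CPM in IZ and 5.2, 6.48 and 5.61 CPM in BZ, and rose by 1.92 ± 0.32 (adjusted p = 0.00895). IPO5, a nuclear import receptor, stood at 258, 243 and 238 CPM in IZ, 147, 150 and 157 CPM in BZ and 99.2 to 114 CPM in the sham hearts, and rose by 0.70 ± 0.14 (adjusted p = 0.0112, and 0.0579 without pig 1). BMP4, a growth factor of the TGF-beta family, stood at 16.2, 39.7 and 12 CPM in IZ and 7.56, 2.74 and 6.56 CPM in BZ, and rose by 1.84 ± 0.45 (adjusted p = 0.0255) and by 0.99 ± 0.20 without pig 2 (adjusted p = 0.0418).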
